A study of Homo sapiens with 4 samples.

Results

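The ERBB receptors other than ERBB2 and their ligands were examined in HCC1954 cells, an established human breast cancer cell line, by RNA-seq. The set was chosen by gene name and holds 10 of the 58735 genes in the count table. They are 3 receptor genes (EGFR, ERBB3 and ERBB4) and 7 ligand genes (AREG, EREG, TGFA, HBEGF, BTC, EPGN and NRG1). All 10 had a row in the table, and 8 passed the filter on low counts, while ERBB4 and NRG1 did not. The cells carried either shCON, a scrambled control hairpin, or shZDHHC15, hairpin RNA against the palmitoyltransferase gene ZDHHC15, with 2 samples in each group and no other agent in the labels. The hairpins were delivered in GIPZ lentiviral vectors. The design text calls the knockdown stable, while the treatment text gives a harvest 36 h after a transient transfection, and neither says whether the samples of a group were separate cultures or whether the shZDHHC15 samples carried the same hairpin. The p-values therefore measure only the spread between these samples, which may be technical or, within shZDHHC15, a spread between hairpins. The paper mentions a screen of monoclonal cultures for the hairpins, without saying whether these samples came from such clones. A difference between clones could not be told apart from depletion of ZDHHC15 in this design.

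The ERBB receptors are tyrosine kinases that signal as pairs. EGFR binds AREG, EREG, TGFA, HBEGF, BTC and EPGN, whereas ERBB3 and ERBB4 bind the neuregulins, and some of the EGFR ligands also bind ERBB4. ERBB2 has no known soluble ligand and pairs with the other receptors, and ERBB3, which has little kinase activity of its own, is a preferred partner. The ligands are made as membrane-anchored precursors that proteases of the ADAM and rhomboid families release. HCC1954 is known as a cell line with amplified ERBB2, and AREG is often listed among the target genes of YAP, the cofactor studied with ZDHHC15.

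The libraries held between 17560982 and 19118704 counts on genes. ZDHHC15, the targeted gene, had 17617 and 15716 counts in shCON cells and 0 in both shZDHHC15 samples, which is at least 6045-fold lower against a floor of 3 counts per library. Why no count remained was not tested, and counts per gene do not show how the transcript was lost. A count of 0 allows up to 3 counts, between 0.153 and 0.178 CPM (counts-per-million, scaled here by edgeR's TMM factors), for counting error only. All 6 epithelial markers had at least 10 counts in every sample, with a summed level of 10424 to 11452 CPM in shCON cells and 4516 to 5017 CPM in shZDHHC15 cells. Its members went both ways, since KRT8, KRT18, KRT5 and EPCAM were lower, KRT19 was higher (log2 fold change 0.44, adjusted p = 0.0115) and CDH1 was not called (-0.05, adjusted p = 0.706, all by edgeR). The leukocyte list summed to at most 0.509 CPM, with CD3E at 0. The fibroblast list summed to between 5.81 and 7.17 CPM in shCON and between 8.51 and 11.5 CPM in shZDHHC15 cells, with LUM at 0. The endothelial list summed to 57.1 CPM in both shCON samples and to between 101 and 107 CPM in shZDHHC15 cells, with 3 of its 4 genes above 10 counts in every sample and VWF between 0 and 7 counts. PECAM1 and CDH5 were higher (log2 fold changes 2.91 and 0.65) and KDR was lower (-0.64, adjusted p = 0.0227 by edgeR). Of the hormone receptors, PGR had at most 1 count, and ESR1 had 161 and 103 counts in shCON and 308 and 305 in shZDHHC15 cells. The part of these markers in the changes described here was not tested. In such bulk RNA, fewer cells of a type and less RNA per cell cannot be told apart.

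Whether the transcripts of this receptor and ligand family differed with ZDHHC15 depletion was asked by edgeR's quasi-likelihood test over 15817 genes, with Benjamini-Hochberg adjustment. EGFR, ERBB3 and BTC rose, TGFA fell, and AREG, EREG, HBEGF and EPGN did not pass an adjusted p of 0.05. The 4 members that passed were 50% of the 8 tested, beside 42.0% of all tested genes. Higher calls were 3 of 8 members, or 37.5%, beside 21.7% of all tested genes, and lower calls 1 of 8, or 12.5%, beside 20.3%. The values of the groups did not overlap for 6 of the 8 members, or 75%, and for 72.5% of all tested genes. With 8 members, 1 gene more or fewer moves a share by 12.5 percentage points, and nothing particular to the set is read from these shares. The median log2 fold change of the 8 members was 0.49, and that of all tested genes was 0.02. The smallest two-sided p of an exact permutation of 2 against 2 samples is 0.333, and the p-values given come from edgeR, which borrows the spread from all genes.

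**Figure D1:**
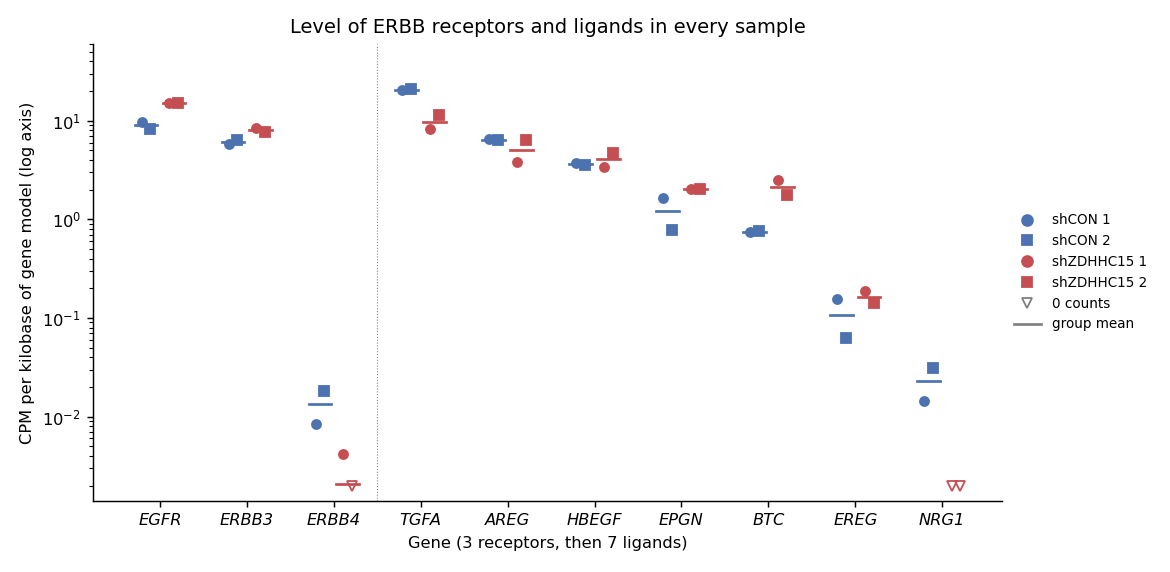
Level of each of the 10 genes in every sample, as CPM per kilobase of gene model on a log axis, with circles for sample 1, squares for sample 2 and short lines for group means; open triangles mark 0 counts and have no height. EGFR and ERBB3 lie higher in both shZDHHC15 samples, TGFA lies lower, and ERBB4 and NRG1 lie lowest in every sample.

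EGFR, the receptor of most of these ligands, lies on chromosome 7 (55019021 to 55211628 on GRCh38, plus strand, ENSG00000146648), with 34 merged exons in GENCODE release 29. EGFR had 2224 and 1741 counts with shCON, and 3489 and 3730 with shZDHHC15. Both shZDHHC15 samples were above both shCON samples, and the shCON pair was further apart than the shZDHHC15 pair. Its level rose from 113 ± 13.3 to 189 ± 1.87 CPM (SD, n = 2), which is 0.74 as log2 fold change (SE, the standard error of the log2 value, 0.101; adjusted p = 4.0e-05 by edgeR), or 1.68-fold. Among all tested genes, 13.4% had a larger positive value. Fits that omit 1 of the 4 samples gave values from 0.62 to 0.84. The antisense gene EGFR-AS1 shares 186 exon bases with EGFR and received between 4 and 6 counts in each sample.

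RefSeq lists a pair of starts for EGFR on GRCh38.p14, and the bases before each are shown because EGFR is the receptor that rose most and the windows differ in their letters. The first window ends at the gene's 5′ end and has a GC content of 73.6%. The second lies inside the gene and has a GC content of 38.8%, beside a median of 58% over all 35116 promoter windows of 250 bases. The search covered both strands for TGANTCA (the AP-1 motif), GGAATG (the TEAD motif), TGACGTCA (the CRE) and the ISRE motif. Capitals mark matches. The second window holds the AP-1 letters at 232 to 226 and at 136 to 130 bases before its start, and the TEAD letters at 114 to 109, in the part that overlaps an annotated exon and is not printed. The first window holds none of the 4 motifs. The AP-1 letters occur in 6.57% of all windows and the TEAD letters in 11.9%. The counts are per gene and do not tell which start was used.
EGFR, first start, chr7:55018767-55019016, plus strand: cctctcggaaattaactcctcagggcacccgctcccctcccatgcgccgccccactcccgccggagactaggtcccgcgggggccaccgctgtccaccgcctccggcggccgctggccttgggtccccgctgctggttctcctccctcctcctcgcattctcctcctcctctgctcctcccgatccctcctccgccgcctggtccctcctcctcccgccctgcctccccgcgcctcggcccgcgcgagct
EGFR, second start, chr7:55109589-55109722, plus strand: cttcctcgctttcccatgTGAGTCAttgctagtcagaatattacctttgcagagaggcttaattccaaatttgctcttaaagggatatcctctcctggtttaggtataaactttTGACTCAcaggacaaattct

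ERBB3 (chromosome 12, 56076799 to 56103505, plus strand, ENSG00000065361), the neuregulin receptor, received 961 and 972 counts in shCON cells and 1408 and 1367 in shZDHHC15 cells, so that the groups did not overlap. Its level rose from 55.2 ± 3.47 to 72.6 ± 4.23 CPM (SD, n = 2), with a log2 fold change of 0.40 (SE 0.105, adjusted p = 0.00723 by edgeR), or 1.32-fold. Without shZDHHC15 replicate 1 the log2 fold change was 0.34 with a wider SE of 0.156, and the call was lost. That fit leaves 1 shZDHHC15 sample. A larger positive value was found in 25.6% of all tested genes.

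ERBB4 (chromosome 2, 211375717 to 212538841, minus strand, ENSG00000178568), a receptor of neuregulins and of some EGFR ligands, was close to absent in every sample. It received 2 and 4 counts in shCON cells and 1 and 0 in shZDHHC15 cells. The ratio of the summed counts, shZDHHC15 over shCON and corrected for library size, was 0.153 with an exact 95% binomial interval of 0.0033 to 1.26, so a difference was not detectable at this depth.

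ERBB2 itself, which is no member of the set, was the most abundant of the 4 receptor transcripts, at 558 ± 23.3 CPM per kilobase in shCON and 472 ± 21.8 in shZDHHC15 cells (SD, n = 2). Its log2 fold change was -0.24 (SE 0.0847, adjusted p = 0.0332 by edgeR). That call was lost with library size as the only scaling (adjusted p = 0.0682), with a minimum of 10 counts in every sample (0.0623), and without shCON replicate 2 (0.0869), shZDHHC15 replicate 1 (0.124) or shZDHHC15 replicate 2 (0.275), all by edgeR. MIEN1 and PGAP3 overlap its exons on the opposite strand by 571 and 194 bases, and whether counting used the strand is not given in the sources used here. Per length, ERBB2 was 55.6 and 69.7 times as abundant as EGFR in the shCON samples, and 32.6 and 30.1 times in the shZDHHC15 samples. EGFR thus made up 1.75% and 1.40% of the summed receptor transcripts in shCON cells, and 2.93% and 3.16% in shZDHHC15 cells. ERBB3 made up 1.05% and 1.08%, and then 1.64% and 1.61%. In neither case did the groups overlap.

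TGFA (chromosome 2, 70447280 to 70554193, minus strand, ENSG00000163235) encodes transforming growth factor alpha, a ligand of EGFR, and was the only member that fell past the threshold. TGFA had 1840 and 1750 counts with shCON, and 758 and 1108 with shZDHHC15. The groups lay apart, with the shZDHHC15 samples spread more widely than the shCON samples. The level fell from 102 ± 1.99 to 48.6 ± 11.1 CPM (SD, n = 2), with a log2 fold change of -1.07 (SE 0.13, adjusted p = 1.41e-05 by edgeR). A lower value was found in 3.57% of all tested genes. Fits that omit 1 of the 4 samples gave values from -1.34 to -0.86.

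BTC (chromosome 4, 74744759 to 74794686, minus strand, ENSG00000174808) encodes betacellulin, which binds EGFR and ERBB4. It rose from 38 and 36 counts in shCON cells to 130 and 98 in shZDHHC15 cells. Both shZDHHC15 samples lay far above the shCON samples, which were nearly equal. The level was 2.11 ± 0.0352 CPM in shCON and 5.99 ± 1.41 CPM in shZDHHC15 cells (SD, n = 2), with 1.5 as log2 fold change (SE 0.266, adjusted p = 4.09e-04 by edgeR), or 2.83-fold. This was the largest change among the 8 tested members, and 4.36% of all tested genes had a larger positive value. Fits without 1 of the samples put it between 1.24 and 1.72.

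**Figure D2:**
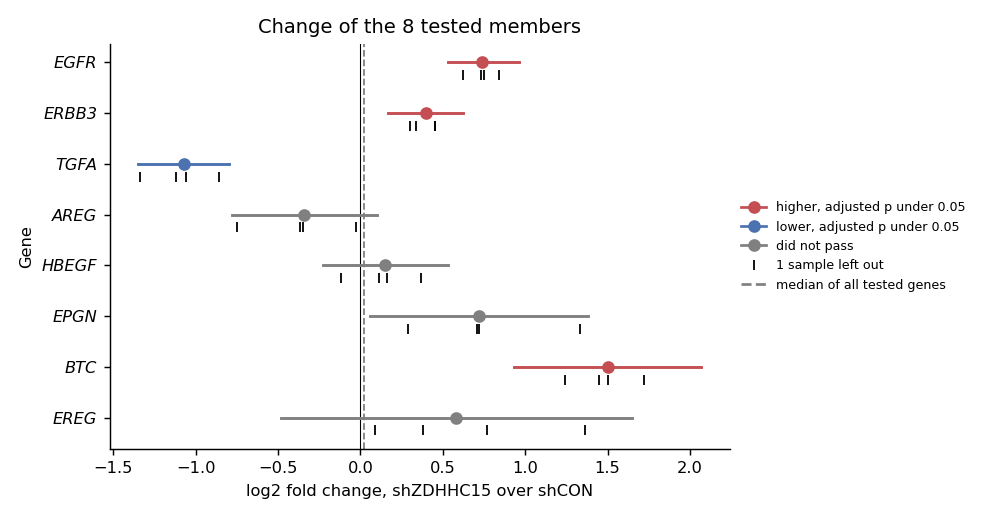
Log2 fold change of the 8 tested members, shZDHHC15 over shCON, as points with 95% intervals from the edgeR fit; ticks under each point give the values with 1 sample left out, and the dashed line is the median of all tested genes at 0.02. EGFR, ERBB3 and BTC lie above 0 and TGFA below it, while the ticks of AREG run from -0.75 to -0.03 and those of EREG from 0.09 to 1.36.

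AREG (chromosome 4, 74445134 to 74455009, plus strand, ENSG00000109321), which encodes amphiregulin, was not called. It received 194 and 179 counts in shCON cells, and 118 and 204 in shZDHHC15 cells. In CPM the shCON samples were both at 10.6, whereas the shZDHHC15 samples were at 6.34 and 10.4, the second close to the control level. The log2 fold change was -0.34 (95% interval -0.78 to 0.10, adjusted p = 0.207 by edgeR). A single library decided this value: it was -0.75 without shZDHHC15 replicate 2 and -0.03 without shZDHHC15 replicate 1.

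HBEGF (chromosome 5, 140332843 to 140346631, minus strand, ENSG00000113070) encodes heparin-binding EGF-like growth factor. It received 207 and 183 counts in shCON cells and 191 and 282 in shZDHHC15 cells, and the groups overlapped. The log2 fold change was 0.15 (95% interval -0.23 to 0.53, adjusted p = 0.526 by edgeR), and it was -0.12 without shZDHHC15 replicate 2. The interval leaves room for a fall as well as a rise, so equal levels are not shown.

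EPGN (chromosome 4, 74308473 to 74315307, plus strand, ENSG00000182585), which encodes epigen, received 54 and 24 counts in shCON cells and 68 and 72 in shZDHHC15 cells. The shZDHHC15 samples were both above the shCON samples, which differed more than 2-fold from each other. The log2 fold change was 0.72 (95% interval 0.06 to 1.38, unadjusted p = 0.0347 and adjusted p = 0.0756 by edgeR). It was 1.33 without shCON replicate 1 and 0.29 without shCON replicate 2. EREG (chromosome 4, 74365143 to 74388751, plus strand, ENSG00000124882), which encodes epiregulin, received 16 and 6 counts in shCON cells and 20 and 16 in shZDHHC15 cells. Its groups overlapped, and the 95% interval of its log2 fold change ran from -0.48 to 1.65 (adjusted p = 0.375 by edgeR), which leaves room for a fall as well as for a rise of more than 2-fold.

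NRG1 (ENSG00000157168), which encodes neuregulin 1, the ligand of ERBB3 and ERBB4, received 3 and 6 counts in shCON cells and 0 in both shZDHHC15 samples. The mean level in shCON cells was 1.66 times the floor of 3 counts per library in shZDHHC15 cells. The first shCON sample itself had 3 counts, so no lower limit of a fall is read from this. No test was run, since the gene did not pass the filter on low counts.

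**Figure D3:**
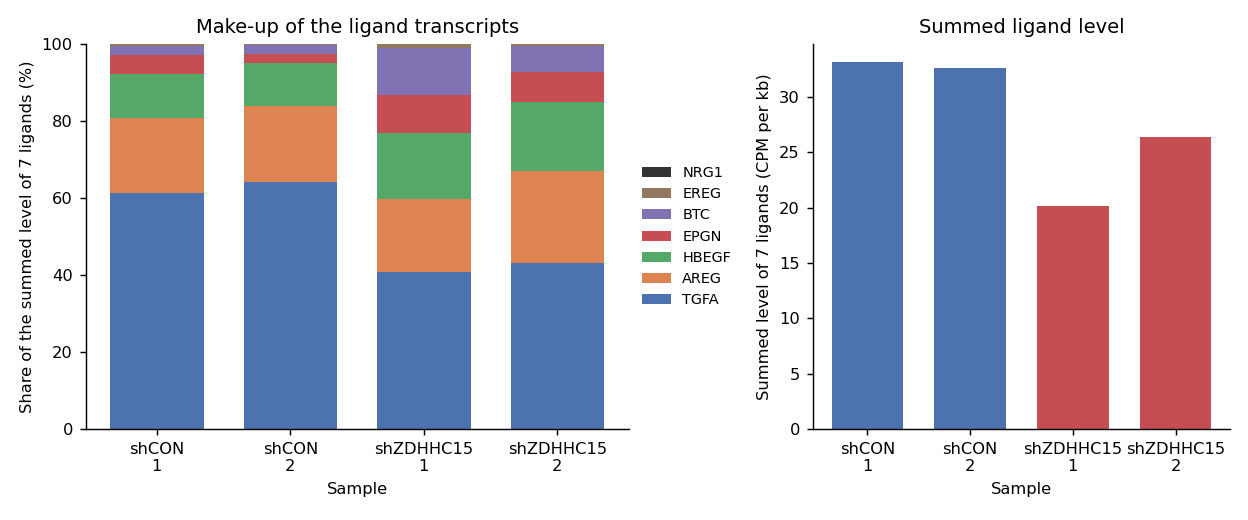
Left, share of each ligand in the summed level of the 7 ligands (CPM per kilobase), in percent, by sample; right, the summed level itself by sample. TGFA takes 61.4% and 64.2% in the shCON samples and 40.8% and 43.1% in the shZDHHC15 samples, and the sum is lower in both shZDHHC15 samples.

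The order of the levels was read per kilobase of gene model, which allows a rough comparison between genes. This length merges the exons of all annotated transcripts (3 for AREG, 23 for ERBB3) rather than those expressed. Close ranks, such as AREG and ERBB3 in shCON cells, therefore depend on the annotation. The shares and ratios per length carry the same limit. In shCON cells TGFA was highest at 20.6 CPM per kilobase, followed by EGFR (8.99), AREG (6.45), ERBB3 (6.10), HBEGF (3.68), EPGN (1.21), BTC (0.749), EREG (0.108), NRG1 (0.0230) and ERBB4 (0.0133). All neighbours in that order were apart in both samples except NRG1 and ERBB4. In shZDHHC15 cells EGFR was highest at 15.1 CPM per kilobase, followed by TGFA (9.79), ERBB3 (8.04), AREG (5.08), HBEGF (4.08), BTC (2.13), EPGN (2.02), EREG (0.165), ERBB4 (0.00206) and NRG1 (0). Here the samples overlapped between TGFA and ERBB3, between AREG and HBEGF, between BTC and EPGN, and between ERBB4 and NRG1.

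The summed level of the 7 ligands was 33.1 and 32.6 CPM per kilobase in the shCON samples and 20.1 and 26.4 in the shZDHHC15 samples, a ratio of means of 0.708. TGFA made up 61.4% and 64.2% of that sum in shCON and 40.8% and 43.1% in shZDHHC15 cells. BTC made up 2.24% and 2.33% in shCON cells, and 12.3% and 6.72% in shZDHHC15 cells. The share of AREG was 19.5% and 19.8%, and then 19.1% and 23.9%, and its groups overlapped. TGFA was 27.5 and 27.6 times as abundant as BTC in the shCON samples, and 3.31 and 6.42 times in the shZDHHC15 samples. TGFA remained the most abundant ligand in every sample. These sums and shares are descriptions with no test.

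The genes EPGN, EREG, AREG and BTC lie together on chromosome 4, with the starts of EPGN and BTC 486 kb apart and those of EREG and AREG 80.0 kb apart. The window from 500 kb before EPGN to 500 kb after BTC (73808473 to 75294686) holds 30 genes of the table, of which 11 were tested, these 4 ligands and 7 neighbours. BTC was the only ligand of the cluster that passed, while its 3 relatives had values between -0.34 and 0.72 that did not. Of the 7 neighbours, 2 rose and 1 fell, where 21.7% of all tested genes were higher and 20.3% lower. PARM1, the closest tested neighbour of BTC, rose from 7.35 ± 0.161 to 14.2 ± 0.899 CPM (log2 fold change 0.95, SE 0.163, adjusted p = 3.15e-04 by edgeR). The chemokine gene CXCL5 rose from 1.34 ± 0.114 to 5.21 ± 0.915 CPM (log2 fold change 1.96, SE 0.289, adjusted p = 8.43e-05). CXCL2 had a log2 fold change of -0.37 (adjusted p = 0.0351 by edgeR), a call lost with DESeq2 (adjusted p = 0.284), with library size only (0.103), with no filter on low counts (0.182) and without shZDHHC15 replicate 1 (0.536).

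The bases before the RefSeq starts of AREG and EREG (GRCh38.p14) are shown because, among these 4 neighbouring ligands, they alone held any of the motifs searched. Both windows stop where the annotated exon of GENCODE release 29 begins, 2 bases before the end of the 250-base window. AREG holds the CRE letters at 65 to 58 bases before its start, and 1.65% of all windows hold them. EREG holds the TEAD letters on the minus strand at 175 to 170, as do 11.9% of all windows. BTC and EPGN held none of the 4 motifs in their windows, nor did TGFA, HBEGF and ERBB4. The ISRE motif was found before none of the 8 members with a promoter entry and in 3.02% of all windows. Such matches describe letters and not binding.
AREG, chr4:74444886-74445133, plus strand: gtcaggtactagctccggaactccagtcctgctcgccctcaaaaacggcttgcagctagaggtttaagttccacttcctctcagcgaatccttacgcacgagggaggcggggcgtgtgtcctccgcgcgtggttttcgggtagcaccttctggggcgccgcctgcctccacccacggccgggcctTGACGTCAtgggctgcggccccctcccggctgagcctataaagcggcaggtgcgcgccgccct
EREG, chr4:74364895-74365142, plus strand: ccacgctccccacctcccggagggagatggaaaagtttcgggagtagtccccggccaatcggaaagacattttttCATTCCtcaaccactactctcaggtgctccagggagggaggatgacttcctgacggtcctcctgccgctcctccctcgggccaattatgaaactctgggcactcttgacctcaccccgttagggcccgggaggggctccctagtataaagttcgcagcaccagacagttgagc

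To set the receptors and ligands beside the rest of the pathway, 93 further genes in 4 lists were counted, of which 89 were tested. Of these, 28 were higher (31.5%, beside 21.7% of all tested genes) and 15 lower (16.9%, beside 20.3%). Their median log2 fold change was 0.16. Scaled by library size alone, 38 were higher and 10 lower, and that scaling gave 3926 higher and 2545 lower among all tested genes. Without shZDHHC15 replicate 1, fewer of these genes were called lower, and fewer of all tested genes as well. Of the other ERBB ligands, EGF and NRG2 passed the filter and both rose, and they are named after their values were seen. EGF went from 25 and 18 counts in shCON to 102 and 64 in shZDHHC15 cells (log2 fold change 1.82, SE 0.345, adjusted p = 6.83e-04 by edgeR). NRG2, a neuregulin, went from 7 and 10 counts to 38 in both shZDHHC15 samples (log2 fold change 2.02, SE 0.422, adjusted p = 0.00145 by edgeR).

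Of 14 tested genes of ligand shedding, 6 were higher (42.9%) and 1 was lower (7.14%), beside 21.7% and 20.3% of all tested genes. The median log2 fold change was 0.23. RHBDL2, a rhomboid protease, rose from 7.55 ± 0.979 to 14.3 ± 2.42 CPM (log2 fold change 0.92, SE 0.18, adjusted p = 8.78e-04 by edgeR). BACE1, a protease that cleaves neuregulin 1, rose from 7.23 ± 0.0862 to 12.5 ± 0.0512 CPM (log2 fold change 0.79, adjusted p = 0.00146). ADAM17, the main protease that releases TGFA and AREG, and ADAM10, which releases BTC and EGF, were named after their values were seen. ADAM17 received 638 and 677 counts in shCON cells and 1224 and 1162 in shZDHHC15 cells (log2 fold change 0.73, SE 0.114, adjusted p = 1.35e-04 by edgeR). ADAM10 rose from 141 ± 18.4 to 207 ± 17.6 CPM (log2 fold change 0.56, adjusted p = 7.59e-04). RHBDL1, the lower gene of the list, likewise named after its values were seen, had a log2 fold change of -1.02 (adjusted p = 0.0133 by edgeR).

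Of 29 tested genes of receptor turnover and feedback, 8 were higher (27.6%) and 7 lower (24.1%), beside 21.7% and 20.3% of all tested genes. The median log2 fold change was 0.13. ERRFI1, which encodes the EGFR inhibitor MIG6, fell from 731 ± 28.1 to 341 ± 30.8 CPM (log2 fold change -1.10, SE 0.0929, adjusted p = 3.51e-07 by edgeR). STUB1, which encodes the ubiquitin ligase CHIP, had a log2 fold change of -0.50 (SE 0.112, adjusted p = 0.00217). LRIG3, of a family of leucine-rich repeat proteins that act on ERBB receptors, rose from 3.99 ± 0.0227 to 15.0 ± 3.26 CPM (log2 fold change 1.91, SE 0.206, adjusted p = 4.43e-06). SOCS5, whose product can lower EGFR, rose from 22.5 ± 2.15 to 36.6 ± 2.14 CPM (log2 fold change 0.70, adjusted p = 4.17e-04).

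Of 43 tested adaptors and kinases, 12 were higher (27.9%) and 6 lower (14%), beside 21.7% and 20.3% of all tested genes. The median log2 fold change was 0.14. Among genes with enough counts to be named, the largest rises were those of PIK3R1 and PIK3R3, which encode regulatory subunits of PI3-kinase. PIK3R2, another such subunit, had at most 3 counts and was not tested. Whether its exons overlap those of other genes was not examined, so absence of its transcript is not shown. PIK3R1 went from 186 and 110 counts in shCON cells to 663 and 564 in shZDHHC15 cells (log2 fold change 1.93, SE 0.183, adjusted p = 1.17e-06 by edgeR). PIK3R3 rose from 32.0 ± 0.457 to 77.6 ± 12.4 CPM (log2 fold change 1.28, SE 0.123, adjusted p = 1.42e-06). Of the RAS genes, NRAS fell from 78.4 ± 5.89 to 42.5 ± 1.07 CPM (log2 fold change -0.88, SE 0.106, adjusted p = 1.27e-05) and HRAS from 116 ± 16.2 to 68.5 ± 2.18 CPM (log2 fold change -0.76, SE 0.11, adjusted p = 7.1e-05). The lists are described by these counts and medians, and no test of a list as a whole was run.

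**Figure D4:**
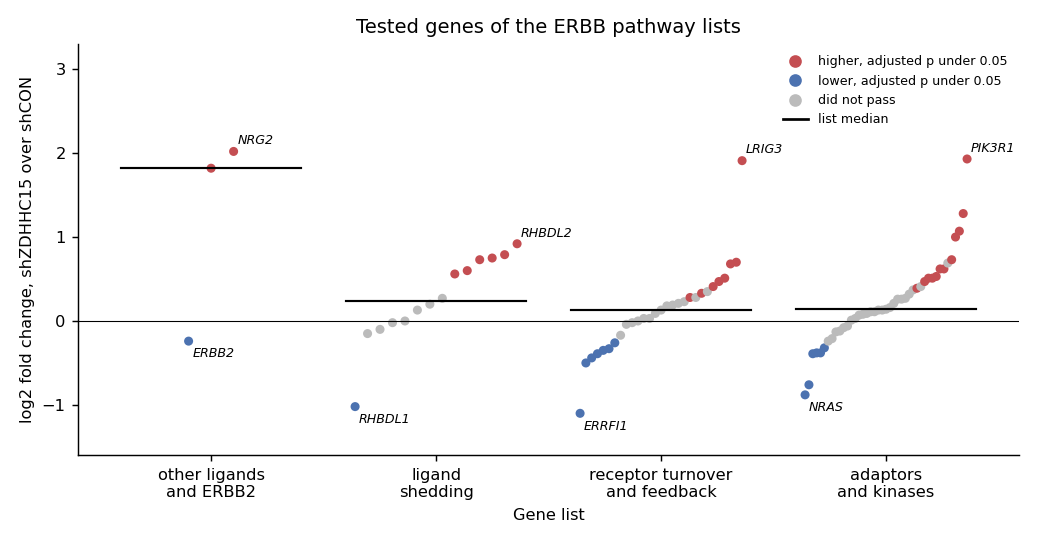
Log2 fold change, shZDHHC15 over shCON, of the tested genes of 4 ERBB pathway lists, each point a gene, with red for higher, blue for lower, grey for not passing an adjusted p of 0.05, and a line at each list's median. The lists of shedding, turnover and adaptors have medians of 0.23, 0.13 and 0.14, and each holds genes of both directions.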

How the data were processed

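RNA-seq of HCC1954 cells was analysed in 4 samples, grouped by their labels (2 shCON, 2 shZDHHC15). The authors deposited 1 table of raw counts of reads per gene, not normalized, from total RNA and NEBNext Ultra libraries. The submitters' processing notes name HISAT2, SAMtools, StringTie and hg38, and the counting tool and its use of strand are not given in the sources used here. All 58735 genes matched GENCODE release 29 on GRCh38 by identifier, start, end and symbol. The file's gene lengths equal the merged exon lengths for all 10 members and were used for CPM per kilobase. All columns of counts were used (0 left out).

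Genes were filtered by filterByExpr (15817 kept), scaled by TMM and tested with edgeR 4.0.16 (R 4.3.3) by glmQLFit and glmQLFTest, with Benjamini-Hochberg adjustment and a threshold of 0.05. The standard error is the log2 fold change divided by the square root of F. The procedure was also run on simulated counts in which far fewer genes changed than were called here. That run does not measure its error in these data. Within groups, counts differed by more than sampling noise (chi-square per degree of freedom 8.32 and 6.79). Named are all members, ERBB2, ZDHHC15, up to 2 rises and 2 falls per list whose higher group averaged 100 counts or more, and the called genes of the chromosome 4 window. Members and lists were chosen with earlier results of these data known. The alternatives were 3 other scalings, DESeq2 1.42.0, 2 other filters, the legacy quasi-dispersion, the replicate block and leaving out each sample. Promoter sequences are RefSeq's (GRCh38.p14), found for 8 of 10 members; ERBB3 and NRG1 had no entry. Member transcripts were compared with all transcripts by BLAST, and at 97% identity over at least 150 bases EGFR-AS1 was the only other gene that matched.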

Additional observations from a re-analysis of the deposited data

How the results depend on the processing

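Of 263 values of log2 fold changes, over 22 genes and 12 alternatives, 250 kept their direction and their side of the threshold, 10 kept the direction and lost the call, 2 gained a call, and HBEGF, which was never called, ran from -0.12, a change of sign without shZDHHC15 replicate 2, to 0.37 with 1 sample left out. EGFR, TGFA and BTC passed under the 8 alternatives that keep all samples, and kept their direction in the fits that omit 1. The 8 alternatives that keep all samples each gave 3 higher and 1 lower member. With a sample left out in turn, the higher members numbered 2 to 4, the lower members 1 to 2, the higher pathway genes 24 to 30 and the lower pathway genes 7 to 17. With library size only, the share of higher genes among all calls was 60.7%, beside 51.6%. The fits that omit a sample leave 1 sample in a group, which is assumed to vary like the other group. For EGFR and TGFA the adjusted p-values of these fits were smaller than with all samples. Passing or gaining a call there is therefore no stricter check. Without a filter on low counts 2282 of all genes were called higher, against 3427 with it, and the cause was not tested. With the replicate number as a block, 3723 genes were higher and 3502 lower, and no member's call changed; the labels do not say that numbers pair the samples, and the deviations of same-numbered samples correlated at 0.061. EREG did not pass the filter of 10 counts in every sample. The 22 genes do not include EGF, NRG2, ADAM17, ADAM10 and RHBDL1, so how their calls depend on the processing is not given. Depth limits what can be said of EREG, ERBB4 and NRG1, with at most 20 counts in a sample.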
